A study of Mus musculus with 18 samples.

Results

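The genes described here are 31 transcripts of lymphocytes and of the tissue that houses them in a lymph node, measured in the white fat of mice. They were chosen by their read levels in these libraries and matched by gene symbol from a list of 31, of which 30 have a row among the 24091 genes of the epididymal fat tables and 31 have a row among the 51826 genes of the inguinal fat tables. Ccl21a was not analysed in epididymal fat. The list holds 8 B cell genes, 2 plasma cell genes, 14 T cell genes, 6 genes of lymph node stroma and its organisation, and 1 gene of plasmacytoid dendritic cells. Since the same levels chose the genes, the levels and differences below describe the libraries and support nothing beyond them.

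The study sequenced mRNA from C57BL/6 mice kept for 24 weeks on a regular or a rotating light schedule. Control mice had 12 h of light and 12 h of dark throughout. Shiftwork mice had that cycle for 4 days of each week and the reversed cycle for the other 3 days. Epididymal white adipose tissue (eWAT, a visceral depot) was taken from both schedules at ZT3 (8 AM) and at ZT12 (5 PM), and inguinal white adipose tissue (iWAT, a subcutaneous depot) at ZT3 alone, with n = 3 libraries in each of the 6 groups. Each library of a group carries its own number in its label, and the numbers 14, 15 and 16 recur in iWAT control and eWAT ZT12 control, and 45 in iWAT shiftwork and eWAT ZT12 shiftwork. The labels do not say what is numbered or whether libraries came from separate animals, so p-values measure only the spread between these samples.

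B cells carry an antigen receptor whose signal passes through CD79A and CD79B, T cells carry a receptor that signals through the CD3 chains, and plasma cells are B cells that have matured to secrete antibody. In a lymph node, stromal cells make the chemokines CXCL13, CCL19 and CCL21, which place B cells in follicles and draw CCR7-bearing T cells and dendritic cells into the zone beside them, and lymphocytes enter through high endothelial venules. The inguinal fat pad of the mouse surrounds a lymph node, and visceral fat holds small lymphoid clusters rich in B cells. In bulk tissue, fewer cells of a type and less RNA per cell cannot be told apart.

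Start regions of 4 members are shown because they stand for the B cell and T cell groups, whose levels parted at ZT12 in epididymal fat. Promoter windows from RefSeq (build GRCm38.p6, 250 bases before to 50 bases after the start) matched 22 of the members with 29 windows. They were searched on both strands for the octamer ATGCAAAT, which POU2F factors bind in B cells, and for the EBF motif, which is TCCC, any 2 bases and then GGGA, and neither of these motifs contains the other. The octamer was in 0 of the 29 member windows and in 1.74% of all 32851 windows. The EBF motif was in 1 member window, that of Cd22, and in 0.904% of all windows. A match is a description of the letters only. The Cd22 window is chr7:30878979-30879278 on the minus strand, with the motif in capitals, beginning 49 bases before the start. The Cd79a window is chr7:24897247-24897546 on the plus strand. The windows of Cd3d, chr9:44981536-44981835 on the plus strand, and of Cd3g, chr9:44980382-44980681 on the minus strand, belong to neighbours whose gene bodies are 1354 bases apart and point away from each other. The sequences below run 5′ to 3′ and hold no capitals where no motif was found.
Cd22: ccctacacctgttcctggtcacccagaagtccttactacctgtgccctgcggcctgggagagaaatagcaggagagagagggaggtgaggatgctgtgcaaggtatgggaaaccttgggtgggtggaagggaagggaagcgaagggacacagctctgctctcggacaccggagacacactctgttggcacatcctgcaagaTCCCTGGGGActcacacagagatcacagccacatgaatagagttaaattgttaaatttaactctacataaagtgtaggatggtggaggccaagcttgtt
Cd79a: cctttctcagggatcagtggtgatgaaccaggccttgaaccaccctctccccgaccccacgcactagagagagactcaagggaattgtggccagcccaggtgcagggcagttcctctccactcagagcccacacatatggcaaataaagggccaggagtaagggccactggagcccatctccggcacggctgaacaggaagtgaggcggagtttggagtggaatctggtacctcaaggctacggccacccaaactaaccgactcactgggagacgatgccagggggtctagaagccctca
Cd3d: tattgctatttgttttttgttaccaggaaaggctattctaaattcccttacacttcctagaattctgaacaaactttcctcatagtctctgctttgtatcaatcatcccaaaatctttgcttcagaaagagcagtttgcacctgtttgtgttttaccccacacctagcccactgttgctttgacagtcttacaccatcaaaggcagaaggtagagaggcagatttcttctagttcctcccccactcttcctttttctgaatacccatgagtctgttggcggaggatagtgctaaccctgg
Cd3g: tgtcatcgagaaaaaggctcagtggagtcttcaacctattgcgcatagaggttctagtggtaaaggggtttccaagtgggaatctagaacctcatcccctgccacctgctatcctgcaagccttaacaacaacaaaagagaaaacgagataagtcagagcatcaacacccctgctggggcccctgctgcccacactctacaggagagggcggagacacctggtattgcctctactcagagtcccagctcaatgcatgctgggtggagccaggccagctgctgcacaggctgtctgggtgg

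Assigned reads ran from 20352008 to 72276733 per eWAT library and from 28544338 to 55639501 per iWAT library. Levels are given as CPM, the reads of a gene scaled to a common library total. A gene with 3 reads, the limit that a count of 0 allows for counting error, had 0.0415 to 0.147 CPM in the eWAT libraries, and 0.0539 to 0.105 CPM in those of iWAT. Several libraries carried transcripts of other tissues. Summed markers of vas deferens and epididymis reached 13009 CPM and 12392 CPM in replicates 1 and 3 of eWAT ZT3 control, against 1.95 to 10.7 CPM in the other 10 eWAT libraries. Summed spermatid markers reached 3210 CPM in eWAT ZT3 shiftwork replicate 3, against at most 52.4 CPM elsewhere in eWAT. Skeletal muscle markers reached 43151 CPM in iWAT shiftwork replicate 1, against at most 674 CPM in the other iWAT libraries. Intestine markers reached 102 CPM in eWAT ZT12 shiftwork replicate 2, against at most 39.3 CPM elsewhere in eWAT, and blood cell markers 2995 CPM against at most 1429 CPM. The labelled tissue carried its own markers throughout, with 9 adipocyte genes summing to between 11327 and 29860 CPM. The part of these markers in the results was not tested.

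In inguinal fat the lymphocyte and lymph node genes were high in control replicates 1 and 2 and low in the other 4 libraries, control replicate 3 among them. The 2 highest of the 6 libraries were control replicates 1 and 2 for 30 of the 31 members, against 30.2% of 16387 genes, and Cxcl13 was the exception. The difference was therefore one between libraries of the same group before it was one between schedules. B cell, T cell and stromal genes were high in the same pair of libraries.

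The B cell genes spanned the widest range. Cd79a, a signalling chain of the B cell receptor, had 134, 268 and 2.11 CPM in the control libraries, given here and below in the order of replicates 1 to 3, and 2.33, 5.57 and 0.31 CPM in the shiftwork libraries. Ms4a1, which encodes the surface protein CD20, was at 156, 213 and 2.56 CPM in control and 1.4, 6.48 and 0.275 CPM in shiftwork. Control replicate 3 lay within the shiftwork values for both genes, so the groups overlapped. Cr2, a complement receptor of mature B cells and follicular dendritic cells, was at 95.9, 106 and 0.974 CPM in control and 0.533, 2.80 and 0.0688 CPM in shiftwork. Fcer2a, the low-affinity IgE receptor CD23 of follicular B cells, was at 170, 271 and 1.56 CPM in control and at 1.33, 6.34 and 0.138 CPM in shiftwork. Summed over the 8 B cell genes, which also include the receptor chain Cd79b, the inhibitory receptor Cd22, the transcription factor Pax5 and the kinase Blk, the level was 1264, 1979 and 23.5 CPM in control and 18.4, 51.4 and 7.12 CPM in shiftwork. Shiftwork replicate 3 had the lowest level of each of the 8 genes.

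The plasma cell genes had the same pair of high libraries. Jchain, which joins IgA and IgM into polymers, was at 167, 162 and 3.67 CPM in control and 11.5, 6.94 and 1.20 CPM in shiftwork. Mzb1, a chaperone of antibody assembly, was at 19.9, 35.0 and 0.454 CPM in control and 0.633, 0.561 and 0.379 CPM in shiftwork. Antibody constant genes, a set added after the data were seen, showed the isotypes beside them. Igkc, the kappa light chain, was at 1114, 1621 and 24.7 CPM in control and 63.3, 42.3 and 8.57 CPM in shiftwork. Ighm, the IgM heavy chain, was at 2078, 3546 and 569 CPM in control and 1012, 1029 and 110 CPM in shiftwork. As for Igkc, replicates 1 and 2 of each schedule lay above the third library. Ighm departed from the other antibody genes in its level outside control replicates 1 and 2, where the others reached at most 63.3 CPM. Ighd, the IgD heavy chain of naive B cells, was at 440, 741 and 7.24 CPM in control and 7.57, 19.4 and 0.895 CPM in shiftwork. The class-switched heavy chains differed in order between the 2 high libraries, with Ighg2b at 325 CPM in replicate 1 and 185 CPM in replicate 2, and Ighg3 at 48.6 and 243 CPM.

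The T cell genes were high in the same libraries, with a narrower range than the B cell genes. Cd3e, a chain of the T cell receptor complex, was at 44.4, 86.7 and 0.811 CPM in control and 2.37, 2.42 and 1.31 CPM in shiftwork. Cd8a, the co-receptor of cytotoxic T cells, was at 62.8, 105 and 0.682 CPM in control and 2.03, 3.12 and 0.998 CPM in shiftwork. Control replicate 3 was the lowest of all 6 libraries for both. Cd4, the co-receptor of helper T cells, was at 81.1, 149 and 3.89 CPM in control and 3.20, 3.75 and 3.79 CPM in shiftwork. Ccr7, the receptor that brings naive T cells to CCL19 and CCL21, was at 61.5, 135 and 1.49 CPM in control and 2.07, 3.36 and 4.92 CPM in shiftwork. Tcf7 and Lef1, transcription factors of naive T cells, reached 224 and 51.9 CPM in control replicate 2 and were at 1.53 and 0.130 CPM in control replicate 3. Il7r, a receptor also borne by innate lymphocytes, had the smallest range, with 47.5, 47 and 7.56 CPM in control and 7.37, 6.76 and 11.5 CPM in shiftwork. The 14 T cell genes summed to 687, 1274 and 24.2 CPM in control and to 38.2, 43.5 and 35.8 CPM in shiftwork, and control replicate 3 lay below all 3 shiftwork libraries. The constant gene of the T cell receptor alpha chain, Trac, followed with 58.6, 116 and 1.95 CPM in control and 6.30, 6.03 and 1.86 CPM in shiftwork.

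Genes made by lymph node stroma and venules were high there too. Ccl21a, a chemokine of lymphatic vessels and T zone stroma, was at 82.6, 242 and 1.46 CPM in control and 4.07, 3.96 and 3.82 CPM in shiftwork. Its near-identical copy Ccl21b was listed at 0 in all 6 libraries, so the split of reads between them is uncertain. Ccl19, a T zone chemokine that also binds CCR7, was at 9.13, 20.5 and 0.292 CPM in control and 0.300, 0.210 and 0.447 CPM in shiftwork. Glycam1, a mucin of high endothelial venules, was at 15, 64.3 and 0.292 CPM in control and 0, 0.701 and 0.0344 CPM in shiftwork. The zero allows up to 0.1 CPM. Madcam1, a vascular addressin, was at 1.55, 3.25 and 0.0649 CPM in control and 0, 0.0701 and 0.447 CPM in shiftwork, and all 4 libraries apart from control replicates 1 and 2 held at most 13 reads. Ltb, the lymphotoxin subunit with which lymphocytes signal to stroma, was at 94.6, 198 and 2.08 CPM in control and 2.90, 4.69 and 2.37 CPM in shiftwork.

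Cxcl13, the B cell follicle chemokine, departed from this order. It was at 80.5, 114 and 10.4 CPM in control and 6.43, 3.61 and 80.6 CPM in shiftwork, so that shiftwork replicate 3 stood level with control replicate 1. In shiftwork replicate 3 the B cell sum was the lowest of the 6 libraries, 7.12 CPM, and Ccl21a was at 3.82 CPM. The same library had the highest macrophage marker sum of the iWAT libraries, 2818 CPM against 973 to 1902 CPM, and Il1rl1, the interleukin-33 receptor, at 223 CPM against 10.2 to 12.2 CPM. Their part in the Cxcl13 level was not tested.

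Siglech, a surface lectin of plasmacytoid dendritic cells, was at 20.8, 30.8 and 8.05 CPM in control and 2.13, 1.89 and 1.45 CPM in shiftwork. Siglech and Cd4 were the only members in which control replicate 3 also lay above all 3 shiftwork libraries. Other genes used to mark plasmacytoid dendritic cells summed to 62.3, 116 and 6.62 CPM in control and 91.8, 10.1 and 21.6 CPM in shiftwork. The value of shiftwork replicate 1 was almost wholly Cox6a2, at 83.1 CPM, which skeletal muscle also expresses.

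**Figure D1:**
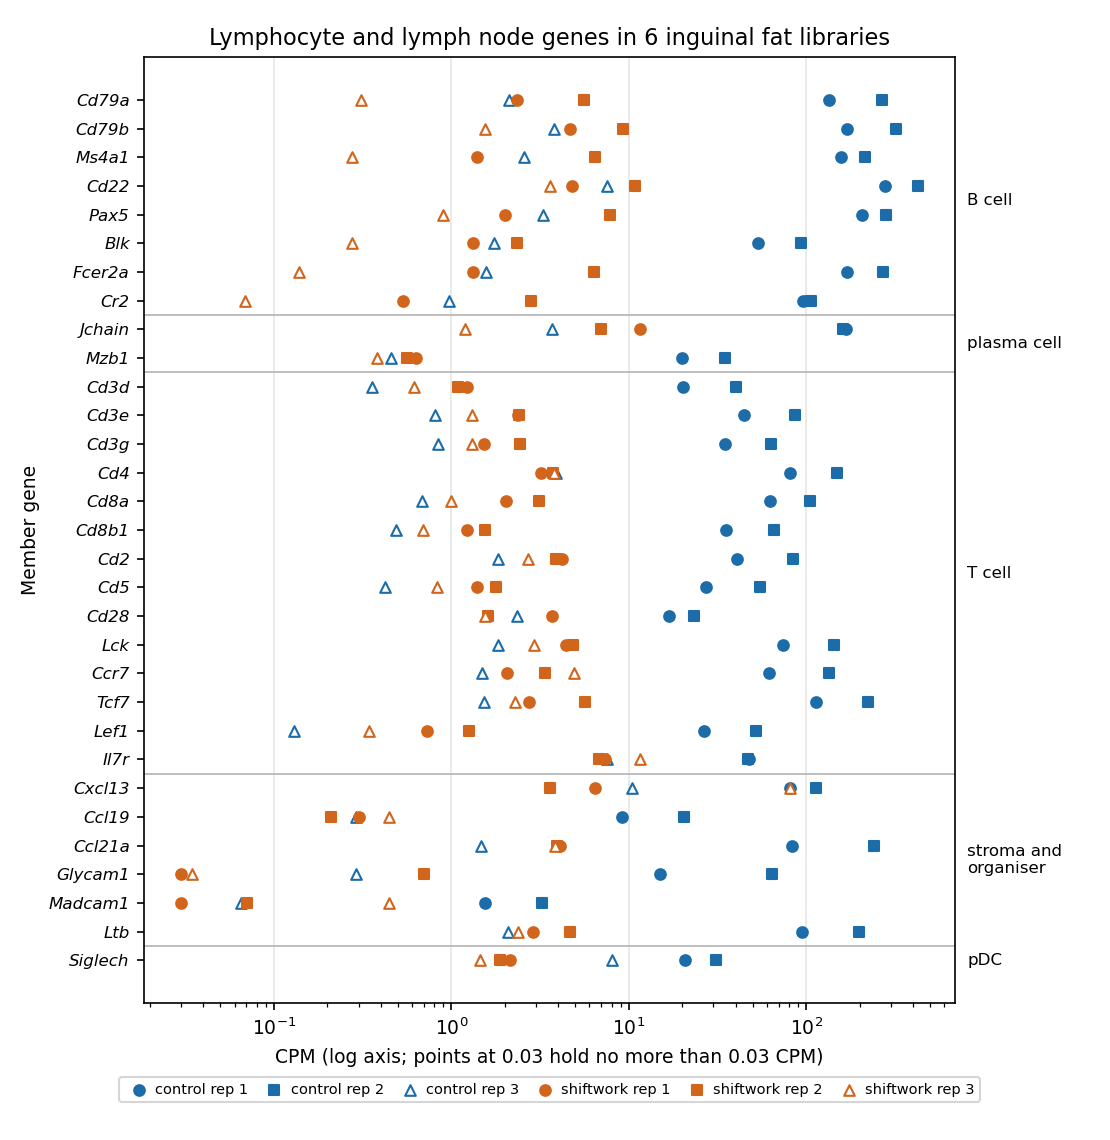
CPM on a log axis (horizontal) of each of the 31 members (vertical, by role, pDC for plasmacytoid dendritic cell) in the 6 iWAT libraries, with 1 point per library, control in blue and shiftwork in orange. Control replicates 1 and 2 are the 2 rightmost points for 30 members, while control replicate 3 lies among the shiftwork libraries or below them for most genes.

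Levels can be compared between genes only per length. In control replicate 2 the authors' RPKM, reads scaled for gene length and library total, was highest for Ccl21a at 279, followed by Cd79b at 225, Cd79a at 184, Ltb at 131, Glycam1 at 104 and Cxcl13 at 99.3. It was lowest for Madcam1 at 2.27, Cd28 at 3.82 and Lef1 at 5.92. In control replicate 3 the order began with Cxcl13 at 9.03, then Cd79b at 2.66, Siglech at 2.38 and Il7r at 2.36. Stromal chemokine and B cell receptor genes thus led in the high library, and Cxcl13 alone stood apart in the low one.

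The 2 high libraries did not carry these genes in equal amount. For each gene the CPM of control replicate 2 was divided by that of control replicate 1, with a 95% exact interval for counting error. Over 14443 genes with at least 10 reads in every iWAT library the median ratio was 0.998, with the middle 50% between 0.808 and 1.18. The members were not filtered in this way, and some, such as Cr2 with 2 reads in shiftwork replicate 3, would not pass. Over the 31 members the median was 1.85 and 21 of them lay between 1.5 and 2.5, where 6.87% of the 14443 filtered genes lay. The 2 sets are thus not alike. Most T cell genes were close to each other, with a median of 1.94 and Cd3e at 1.95 (1.84 to 2.06), Lck, the kinase that starts T cell receptor signalling, at 1.94 (1.86 to 2.03) and Ccr7 at 2.20 (2.10 to 2.30). Il7r, at 0.990 (0.926 to 1.06), and Cd28, a co-stimulatory receptor, at 1.38 (1.25 to 1.53), lay below them.

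The B cell genes had a median ratio of 1.56 and differed among themselves. Cd79a was at 2 (1.93 to 2.06), Ms4a1 at 1.37 (1.32 to 1.41) and Cr2 at 1.10 (1.06 to 1.15), and these intervals do not overlap. Jchain was at 0.968 (0.934 to 1), close to the median of the genes with at least 10 reads in every iWAT library. The stroma and organiser genes had a median of 2.17, led by Glycam1 at 4.29 (3.95 to 4.66) and Ccl21a at 2.92 (2.82 to 3.04), with Cxcl13 at 1.41 (1.35 to 1.48). Most members were thus higher in replicate 2, by unlike amounts, while Jchain and Il7r were not.

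**Figure D2:**
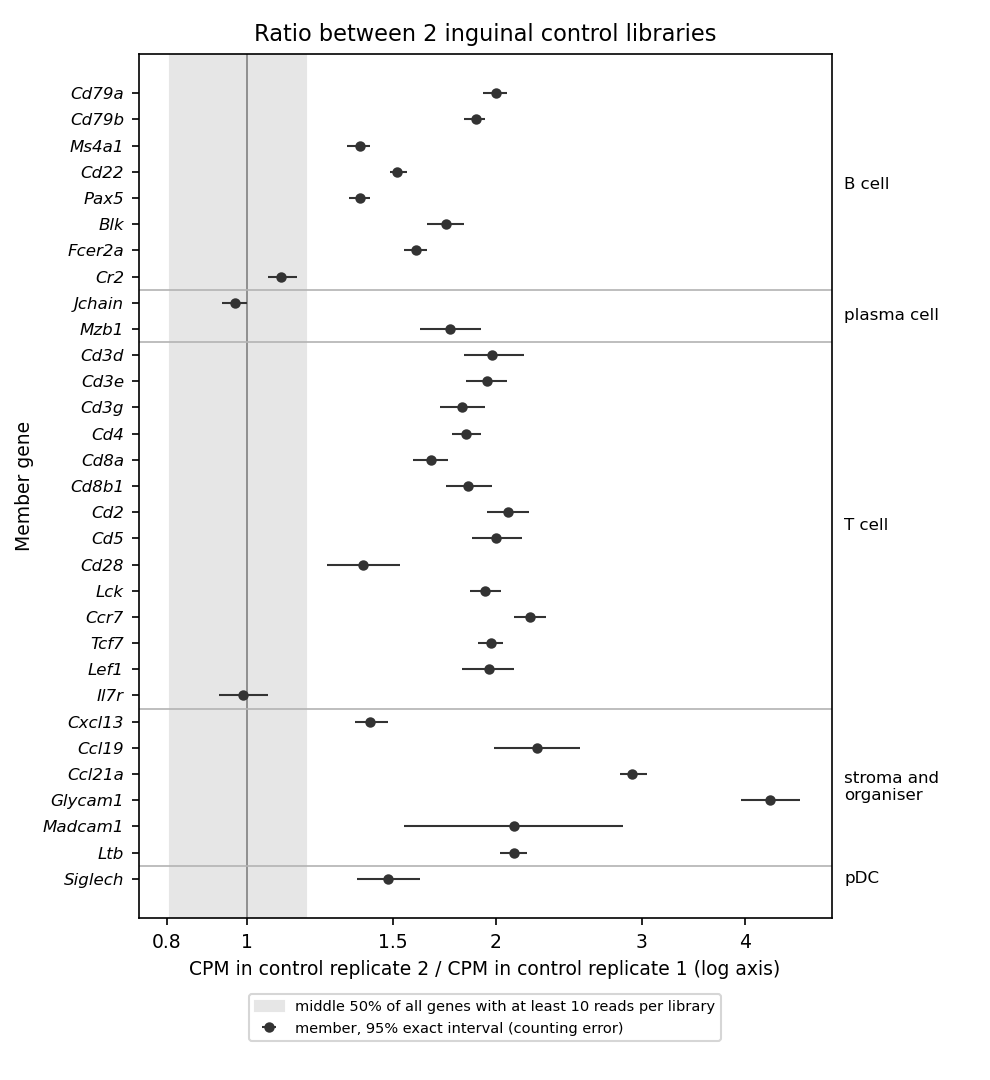
Ratio of the CPM in iWAT control replicate 2 to that in control replicate 1 (horizontal, log axis) for each member (vertical), with 95% exact intervals for counting error as bars. The grey band is the middle 50% of genes with at least 10 reads in every iWAT library. Most T cell genes lie close to 1.9, Jchain, Il7r and Cr2 near 1, and Glycam1 and Ccl21a above the rest.

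The iWAT schedules were compared with limma on log2(value + 1) of the authors' normalized values, over 16387 genes. Differences are log2 fold changes of shiftwork over control ± the standard error (SE), and a gene is called where its p, adjusted over all genes by the Benjamini-Hochberg method, is under 0.05. All 31 members had values below 0, with a median of -3.10 (all genes 0.02) and a range from -5.83 ± 2.08 for Glycam1 to -1.48 ± 0.67 for Il7r. None of the 31 was called, with 0% of genes called lower and 0% called higher. An unadjusted p under 0.05 was found for 8 members, beside 1094 of all 16387 genes. Cd79a was at -4.54 ± 1.92, Ms4a1 at -4.82 ± 1.86, Cd3e at -2.75 ± 1.62 and Cxcl13 at -1.74 ± 1.35 (limma adjusted p from 0.688 to 0.717 for these 4 genes). Siglech, at -3.10 ± 0.47, had the smallest unadjusted p of the members, 0.000465, and an adjusted p of 0.688 in limma. edgeR's quasi-likelihood test on the recovered reads also called 0 genes, with 29 members at an unadjusted p under 0.05, beside 1599 of 16159 genes.

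This result turned on which control libraries were in the fit. Without control replicate 3, limma called 22 of the 31 members lower, against 2.11% of genes, and 0 higher, against 0.124%, with a members' median of -5.12. Without control replicates 1 and 2, an alternative added after seeing the data that leaves 1 control library and assumes that it varies like the shiftwork group, 0 genes were called and the median of the 29 members tested was 0.22. Of those 29 members, 19 then had values above 0 and 10 below. Cd3e was at 1.21 ± 0.60 and Cd8a at 1.38 ± 0.78 in that fit, opposite in sign to the full comparison (limma adjusted p of 1). Without control replicate 1 the median was -2.37, and without control replicate 2 it was -1.95, with 0 members called in either fit. Without shiftwork replicate 1, which held the skeletal muscle markers, the median was -3.16, with 0 members called. Of the members, 2 had an unadjusted p under 0.05 in that fit, beside 511 of 16151 genes.

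The authors' deposited table of the same comparison called 22 of the 31 members lower, against 1.06% of its 29819 genes, and 0 members higher, against 0.369%. The authors' deposited table gave Siglech an adjusted p of 5.73e-07, Cd22 an adjusted p of 0.00151 and Ccl19 an adjusted p of 0.00533. It did not call Cd79a (adjusted p of 0.135 in the authors' deposited table), Glycam1 (0.620) or Cxcl13 (0.992). Of the 22 members called in that table, 21 were also among the 22 called by limma without control replicate 3, 95.5% of each list.

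Other lymphocyte genes outside the list lay below 0 in the same comparison. Of 17 other B cell genes tested, 17 had values below 0 and 0 were called, with a median of -3.44. They included Ly6d, a surface protein of early B lineage cells, at -4.55 ± 1.70 and the adaptor Bank1 at -2.85 ± 1.08 (limma adjusted p of 0.688 for each). Of 14 other T cell genes, 14 lay below 0, with a median of -2.52. Cytotoxic and natural killer cell genes (9 of 9 below 0, median -1.08) and conventional dendritic cell genes (6 of 6 below 0, median -1.87) lay below 0 as well. Macrophage genes did not follow, with 7 of 8 above 0 and a median of 0.61.

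By their sums, other genes of lymph node stroma and of germinal centres were not high in control replicates 1 and 2 alone, but single genes differed. Chst4 was at 1.87 and 6.46 CPM in those libraries against at most 0.105 CPM, and Tnfsf11 at 4.31 and 6.87 against at most 0.357 CPM. Fut7, Gpr182, Il7, Vcam1, Tnfsf13b and Relb were also highest there, while Bst1, Pdpn, Ltbr, Ch25h and Nkx2-3 were not. The 13 other stroma genes summed to 361, 513 and 206 CPM in control and 238, 233 and 454 CPM in shiftwork, and 9 of the 11 tested lay below 0, with a median of -0.71. Shiftwork replicate 3 thus stood between the high control libraries, and Pdpn, a glycoprotein of T zone stroma and lymphatic vessels, was at 159 CPM there against 12.3 to 27.8 CPM in the other 5. The germinal centre genes summed to 23.5, 26 and 21.4 CPM in control and 23, 15.6 and 52.8 CPM in shiftwork, again highest in shiftwork replicate 3. Among them Gcsam was highest in control replicates 1 and 2, at 3.99 and 6.42 CPM against at most 2.41 CPM, whereas S1pr2 was highest in shiftwork replicate 3.

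Lymphatic vessel markers moved with the members in part. The 5 lymphatic endothelial genes summed to 202, 253 and 77.0 CPM in control and 86.7, 65.2 and 189 CPM in shiftwork. Prox1, the transcription factor that defines lymphatic endothelium, was at 14, 16.9 and 1.07 CPM in control and 0.333, 0.841 and 1.75 CPM in shiftwork. Adipocyte markers were lowest in control replicate 2, at 13959 CPM against 18753 to 29860 CPM in the other 5. Whether the 2 high libraries held lymph node tissue was not tested.

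In epididymal fat the B cell and T cell genes were lower than in iWAT control replicates 1 and 2 and near the range of the other 4 iWAT libraries. They went together in part. The eWAT and iWAT tables were made separately, so levels across them are set side by side without a test. The B cell sum ran from 4.58 to 63.0 CPM over the 12 eWAT libraries and the T cell sum from 17.3 to 110 CPM, beside 7.12 to 51.4 CPM and 24.2 to 43.5 CPM in those 4 iWAT libraries. B cell genes were highest at ZT3 in control, low at ZT3 in shiftwork replicates 1 and 2, low at ZT12 in control and intermediate at ZT12 in shiftwork. At ZT3 the T cell sum had a similar order of libraries. It was lowest in shiftwork replicate 2, followed by shiftwork replicate 1 at 31 CPM and control replicate 2 at 31.3 CPM. At ZT12 the B cell sums of shiftwork lay above those of control, whereas the T cell sums overlapped.

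Cd79a was at 4.69, 4.44 and 7.32 CPM in ZT3 control, at 0.675, 0.417 and 4.89 CPM in ZT3 shiftwork, at 0.828, 0.603 and 0.952 CPM in ZT12 control and at 3.18, 3.81 and 1.78 CPM in ZT12 shiftwork. Ms4a1 was at 7.03, 8.13 and 10.1 CPM in ZT3 control, 1.49, 0.509 and 9.04 CPM in ZT3 shiftwork, 0.966, 0.742 and 1.04 CPM in ZT12 control and 5.71, 4.70 and 2.85 CPM in ZT12 shiftwork. At ZT12 the groups did not overlap for either gene, while at ZT3 shiftwork replicate 3 reached the control range. Cr2 was at 3.76, 1.33 and 3.49 CPM in ZT3 control, 0.270, 0.232 and 1.96 CPM in ZT3 shiftwork, 0.138, 0.0928 and 0.317 CPM in ZT12 control and 1.84, 1.08 and 0.374 CPM in ZT12 shiftwork. Summed, the 8 genes were at 39.6, 33.0 and 63.0 CPM in ZT3 control, 7.29, 4.58 and 42.8 CPM in ZT3 shiftwork, 8.60, 10.5 and 10.7 CPM in ZT12 control and 28.1, 30.3 and 16.1 CPM in ZT12 shiftwork. ZT12 control was the tightest group, with a narrower spread than any other.

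Per length, Jchain reached the highest level of the members in eWAT, with an FPKM (fragments scaled for gene length and library total, by the authors) of 72.4 in ZT3 control replicate 3, and its order of groups was not that of the B cell genes. It was at 40.8, 41.3 and 206 CPM in ZT3 control, 6.75, 8.38 and 11.4 CPM in ZT3 shiftwork, 24.6, 21.9 and 20.1 CPM in ZT12 control and 14.1, 6.73 and 17.2 CPM in ZT12 shiftwork. The groups did not overlap at either time, with control above shiftwork at both. Mzb1 was at 2.31, 2.35 and 14.6 CPM in ZT3 control and between 0.315 and 2.79 CPM in the other 9 libraries. Replicate 3 of ZT3 control therefore stood apart for both plasma cell genes, while its B cell sum was 63.0 CPM beside 39.6 and 33.0 CPM. The vas deferens and epididymis markers were high in that library and in replicate 1, and their part in these levels was not tested.

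**Figure D3:**
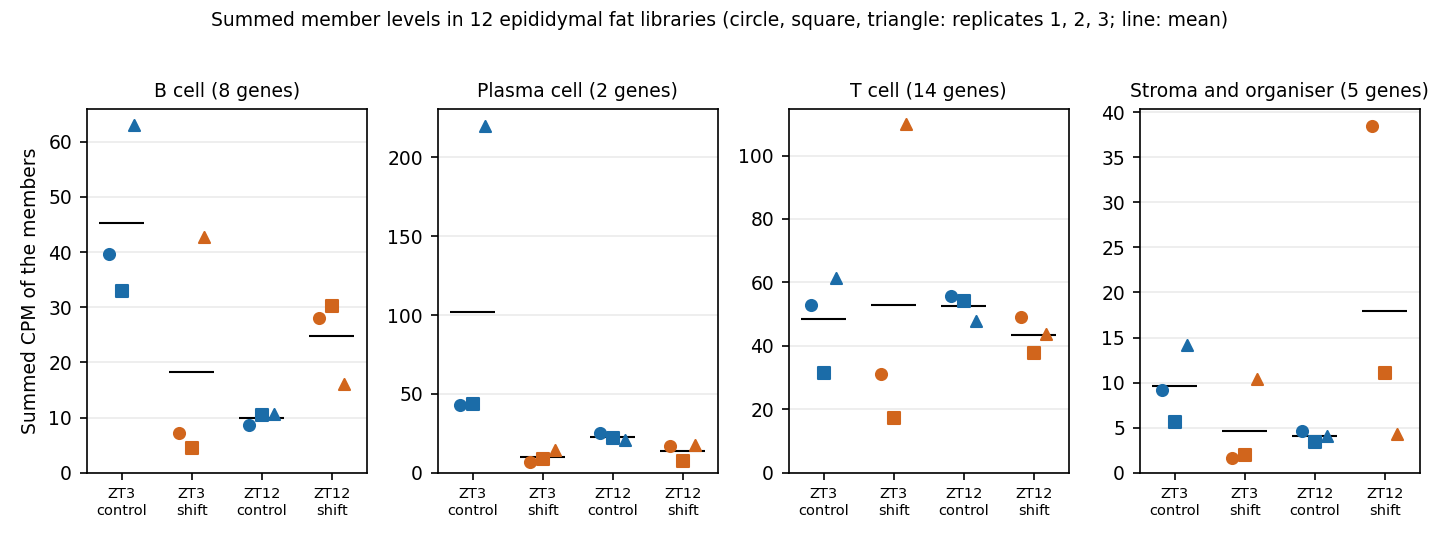
Summed CPM (vertical, from 0) of the B cell, plasma cell, T cell and stroma members in the 12 eWAT libraries, by group (horizontal, control in blue and shiftwork in orange), with 1 point per library and the group mean as a line. The B cell sum is lowest in ZT3 shiftwork replicates 1 and 2 and highest in ZT3 control replicate 3, while T cell sums overlap between the groups.

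T cell genes stayed closer together across the groups. Cd3e was at 3.72, 2.44 and 5.16 CPM in ZT3 control, 2.79, 1.62 and 4.99 CPM in ZT3 shiftwork, 4.51, 2.23 and 4.12 CPM in ZT12 control and 2.40, 2.07 and 2.76 CPM in ZT12 shiftwork. Cd8a was at 2.32, 0.977 and 2.11 CPM in ZT3 control, 0.765, 0.324 and 1.32 CPM in ZT3 shiftwork, 1.29, 0.789 and 1.63 CPM in ZT12 control and 1.20, 1.51 and 1.68 CPM in ZT12 shiftwork. Ccr7 was at 1.74, 1.15 and 1.67 CPM in ZT3 control, 1.04, 0.648 and 3.27 CPM in ZT3 shiftwork, 2.02, 0.928 and 2.13 CPM in ZT12 control and 2.44, 1.65 and 1.22 CPM in ZT12 shiftwork. The groups overlapped for all 3 genes in each pair compared, and 13 of the 14 T cell genes were lowest in ZT3 shiftwork replicate 2. The T cell sum was 52.8, 31.3 and 61.3 CPM in ZT3 control, 31, 17.3 and 110 CPM in ZT3 shiftwork, 55.6, 54.3 and 47.8 CPM in ZT12 control and 49.2, 37.6 and 43.6 CPM in ZT12 shiftwork.

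Replicates 1 and 2 of ZT3 shiftwork were the 2 lowest of the 12 libraries for 3 of the 14 T cell genes and 3 of the 8 B cell genes, against 4.31% of all genes. Single libraries set the extremes of 3 T cell genes. Lef1 was at 23.7 CPM and Tcf7 at 28.2 CPM in ZT3 shiftwork replicate 3, against at most 4.57 and 8.94 CPM in the other 11 libraries. That library also held the spermatid markers, and their part in these 2 levels was not tested. Il7r was at 34.1 CPM in ZT12 control replicate 2, against 3.66 to 12.2 CPM elsewhere in eWAT, while Cd3e was at 2.23 CPM there.

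Glycam1, Madcam1 and Ccl19 were at or near 0 in most eWAT libraries, while Ccl21a was not analysed there. Glycam1 had 67 reads in ZT3 control replicate 1, 0.927 CPM, at most 6 reads in any other library and 0 reads in 7 of the 12. Madcam1 had at most 2 reads in any library. Ccl19 ran from 0 to 1.08 CPM, with 22, 0 and 22 reads in ZT3 control, 4, 0 and 5 in ZT3 shiftwork, 0, 1 and 2 in ZT12 control and 3, 21 and 18 in ZT12 shiftwork. Levels of these 3 genes did not allow groups to be compared with any precision.

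Cxcl13 was present in eWAT and varied widely. It was at 4.34, 3.73 and 9.14 CPM in ZT3 control, 0.585, 0.139 and 6.89 CPM in ZT3 shiftwork, 2.07, 2.27 and 2.13 CPM in ZT12 control and 34.8, 7.67 and 1.64 CPM in ZT12 shiftwork. At ZT3 it followed the B cell genes, being low in shiftwork replicates 1 and 2 alone. At ZT12 shiftwork replicate 1 stood far above the rest, and its macrophage marker sum, 2951 CPM, was also the highest in eWAT (623 to 2132 CPM in the others). The part of macrophages in that level was not tested. Ltb ran from 0.901 to 3.64 CPM. Siglech was at 2.26, 1.51 and 1.67 CPM in ZT3 control, 2.39, 1.81 and 3.81 CPM in ZT3 shiftwork, 1.56, 0.882 and 1.45 CPM in ZT12 control and 1.57, 2.35 and 1.96 CPM in ZT12 shiftwork. Its schedules overlapped at ZT3. At ZT12 they parted only by 1.56 against 1.57 CPM, and overlapped under TMM scaling, with control replicate 1 at 1.61 and shiftwork replicate 1 at 1.51 CPM.

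**Figure D4:**
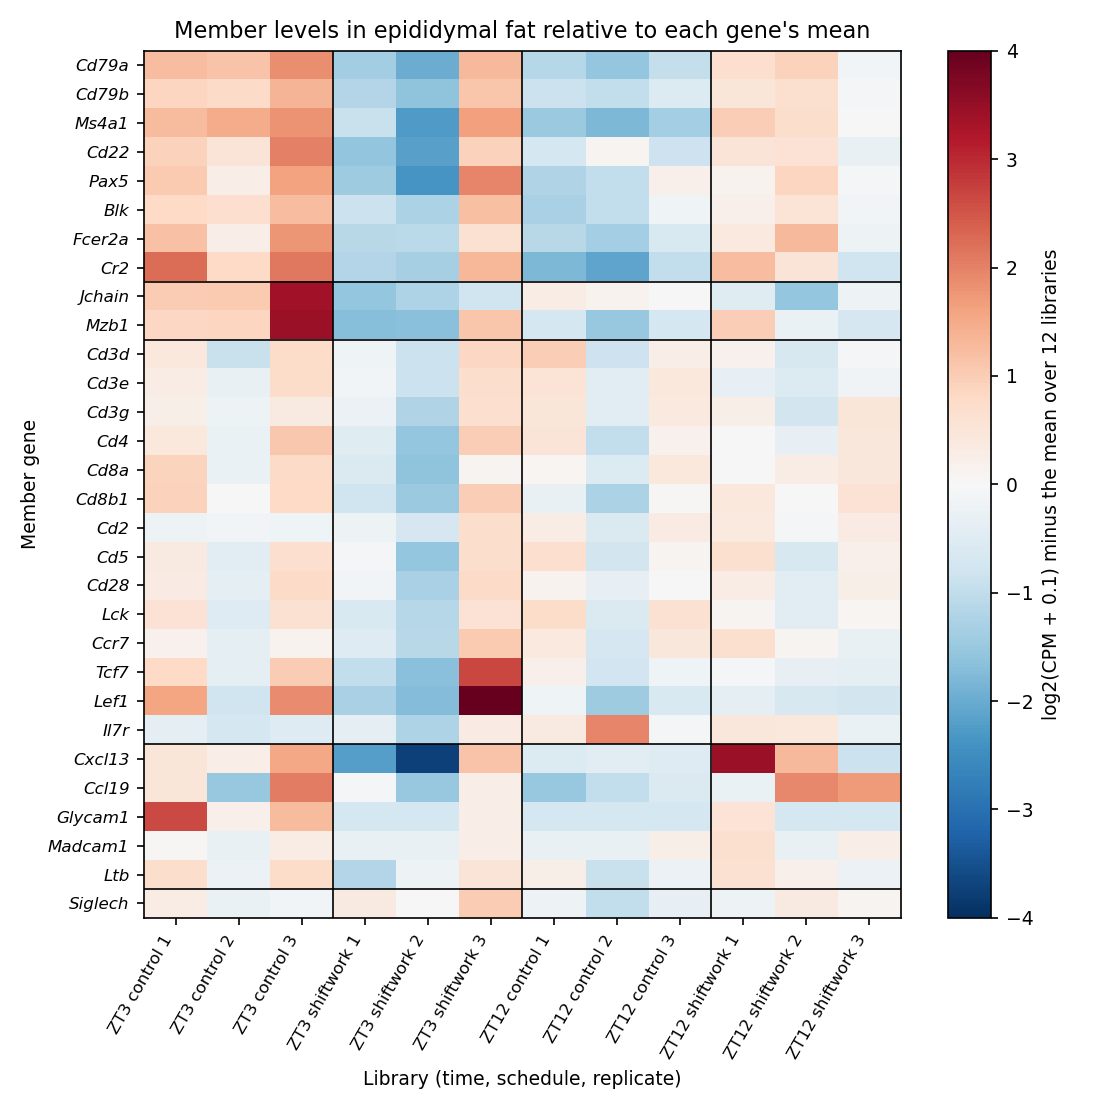
Level of 30 members (vertical, by role) in the 12 eWAT libraries (horizontal), as log2(CPM + 0.1) minus the mean of that gene over the libraries, red above and blue below the mean. The B cell genes form blocks by group, with ZT3 shiftwork replicate 3 as the exception in its group, whereas most T cell genes differ mainly by library.

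The eWAT groups were compared with edgeR's quasi-likelihood test over 15141 genes and 12 libraries, in which 28 members were tested because Glycam1 and Madcam1 had too few reads. The share of genes called at an adjusted p under 0.05 was 0% in each direction in 4 of the 5 comparisons, and was higher than 0 for time in control mice. At ZT3, 22 of the 28 members lay below 0 and 6 above for shiftwork over control, with a median of -0.65 (all genes 0.06). Of the 28, 0 were called and 5 had an unadjusted p under 0.05, beside 2847 of all 15141 genes. The 8 B cell genes all lay below 0 with a median of -1.43, among them Cd79a at -1.56 ± 0.74 and Ms4a1 at -1.30 ± 0.76 (edgeR adjusted p of 0.284 and 0.376). The 14 T cell genes had a median of -0.28, with 9 below 0 and 5 above. Jchain had the largest difference, -3.45 ± 0.64 (edgeR adjusted p of 0.171), and Lef1 the highest value, 1.37 ± 1.31.

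Jchain was the only member called at ZT3 by DESeq2, at -3.46 with an adjusted p of 3.47e-06, against 2.73% of genes called lower and 1.64% higher by DESeq2. It was also called by edgeR when ZT3 control replicate 2 was left out, at -3.79 with an adjusted p of 0.0143, against 2.27% of genes lower and 0.3% higher. Without ZT3 control replicate 3, the library in which Jchain stood highest, the difference was -2.25 ± 0.34 (edgeR adjusted p of 0.552). Without ZT3 shiftwork replicate 3, 27 of the 28 members lay below 0 with a median of -1.89, Cd79a was at -3.23 and Lef1 at -2.96, and edgeR called 0 members, against 0.0065% of genes higher and 0% lower. Without the 3 libraries that held male tract or germ cell transcripts, which leaves 1 ZT3 control library assumed to vary like the other groups, 25 members lay below 0 and 3 above, with a median of -0.92. edgeR then called 0 members, against 0.0323% of genes higher and 0.0258% lower, and Jchain was at -2.52. Cd8a was at -1.18 ± 0.49 and Ccr7 at 0.06 ± 0.54 at ZT3 in the fit with all libraries (edgeR adjusted p of 0.237 and 0.965).

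At ZT12, 20 of the 28 members lay above 0 for shiftwork over control and 8 below, with a median of 0.31. edgeR called 0 of them, and 5 had an unadjusted p under 0.05, beside 355 of all 15141 genes. The 8 B cell genes all lay above 0, with a median of 1.46. Cd79a was at 1.82 ± 0.75 and Ms4a1 at 2.21 ± 0.79, while Cd3e was at -0.63 ± 0.42 and Cd8a at 0.20 ± 0.48 (edgeR adjusted p of 1 for each). The T cell genes had a median of -0.02 with 7 above and 7 below. Jchain had the lowest value, -0.86 ± 0.59, and Ccl19 the highest, 3.68 ± 1.53, which rests on 3 reads in the control group. Markers of some other cells also lay above 0 there. All 5 lymphatic endothelial genes lay above 0, with a median of 3.24 and 0 called, among them Mmrn1, an extracellular protein of lymphatic vessels, at 0.874, 10.7 and 0.317 CPM in control and 3.5, 75 and 70.3 CPM in shiftwork. Mmrn1 thus had another order of shiftwork libraries than the B cell sum, which was 28.1, 30.3 and 16.1 CPM. Lyve1, another of the 5, was at 111, 71 and 33.4 CPM in shiftwork. The 3 intestine genes tested also lay above 0, with a median of 4.40 and 0 called, and Cdh17, an adhesion protein of intestinal epithelium, was at 36.9 CPM in shiftwork replicate 2 and at most 1.12 CPM in the other 5. Their part in the B cell levels was not tested. Without shiftwork replicate 2, 22 members lay above 0, with a median of 0.33 and 0 called. DESeq2 called 0 members at ZT12, against 0.0585% of genes higher and 0.00532% lower.

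Between the times in control mice, edgeR called 559 genes, 2.93% of those tested higher at ZT12 and 0.766% lower, and 0 of the 28 members. An unadjusted p under 0.05 was found for 10 members, beside 3393 of all 15141 genes. Of the members, 22 lay below 0 and 6 above, with a median of -0.92. The 8 B cell genes all lay below 0, with a median of -2.05, led by Cr2 at -3.85 ± 0.94, Ms4a1 at -3.15 ± 0.82 and Cd79a at -2.73 ± 0.77 (edgeR adjusted p of 0.0519, 0.0609 and 0.0750). Jchain was at -2.07 ± 0.60 and Cd8a at -0.47 ± 0.48 (edgeR adjusted p of 0.0823 and 0.635). Without ZT3 control replicate 3 Jchain was at -0.88 ± 0.33 (edgeR adjusted p of 0.286). The T cell genes had a median of -0.04, and Il7r had the highest value, 1.60 ± 0.51 (edgeR adjusted p of 0.0996).

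The edgeR adjusted p of Cr2, Ms4a1 and Cd79a lay close to the threshold in the fit with all libraries, and the members called changed with the test. DESeq2 called 8 members, 7 lower against 6.72% of genes and 1 higher against 7.33%. The 7 lower were Cd79a, Cd79b, Ms4a1, Fcer2a, Cr2, Jchain and Mzb1, and the 1 higher was Il7r. With only the 2 groups compared in the edgeR fit, 5 members were called lower, all B cell genes, against 1.59% of genes. Without ZT3 shiftwork replicate 3, a library outside this contrast that enters the shared estimate of the spread, 9 members were called lower against 8.49% of genes and 1 higher against 9.35%. Without ZT3 control replicate 2, 3 members were called lower against 4.5% of genes and 0 higher against 3.21%. Without ZT3 shiftwork replicate 2, Ms4a1 alone was called lower against 0.554% of genes, and 0 members higher against 2.14%. Without the 3 libraries that held male tract or germ cell transcripts, 3 members were called lower, Cd79a, Cd79b and Ms4a1, against 2.27% of genes, and 0 higher, against 1.73%. The median over the 28 members was then -0.05, with 14 above 0 and 14 below.

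Between the times under shiftwork, 0 members were called by edgeR (1 at an unadjusted p under 0.05, beside 2461 of 15141 genes), with a median of 0.29. DESeq2 called 0 members as well, against 1.12% of genes higher and 0.901% lower. The values ran from -3.30 ± 1.42 for Lef1 to 2.63 ± 1.26 for Cxcl13, and both extremes came from single libraries described above. Cd79a was at 0.65 ± 0.73 and Ms4a1 at 0.36 ± 0.75. Without ZT3 shiftwork replicate 3, 27 of the 28 members lay above 0 with a median of 1 and 0 were called, and Lef1 was at 1.02.

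The schedule difference was also compared between the times, as the interaction of schedule and time. The 8 B cell genes had a median interaction of 2.89 and the 14 T cell genes a median of 0.00. edgeR called 0 members, and 11 had an unadjusted p under 0.05, beside 1535 of 15141 genes. Fcer2a, at 3.37 ± 0.87, had the smallest p of the members (edgeR adjusted p of 0.417), and Cd79a was at 3.39 ± 1.05 (edgeR adjusted p of 0.443). DESeq2 called Fcer2a, at 3.39 with an adjusted p of 0.0391, against 0.835% of genes called higher. Without ZT3 shiftwork replicate 3, edgeR called Cd79a, Cd79b and Ms4a1, against 0.065% of genes called higher and 0.0325% lower. The schedule comparisons at ZT3 and at ZT12 share no library, whereas each schedule comparison shares groups with the time comparisons.

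The other B cell genes outside the list gave like values in eWAT. At ZT3, 15 of 17 lay below 0 with a median of -0.89, led by Ly6d at -3.58 ± 0.92 and the transcriptional coactivator Pou2af1 at -2.36 ± 0.74 (edgeR adjusted p of 0.195 and 0.211). Between the times in control mice 14 of 17 lay below 0 with a median of -1.60, and Ly6d was called, at -3.99 ± 0.94 (edgeR adjusted p of 0.0484). Ly6d was at 15.6, 1.87 and 16.3 CPM in ZT3 control, however, high in the same libraries as the male tract markers and at most 2.72 CPM elsewhere in eWAT. Without the 3 libraries it was at -1.63 ± 0.56 and no longer called (edgeR adjusted p of 0.132).

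In the same comparison of control mice between the times, of 14 other T cell genes 12 lay above 0 at ZT12, with a median of 0.27, and 1 was called lower, the chromatin organiser Satb1 at -1.92 ± 0.44 (edgeR adjusted p of 0.0442). Satb1 was at 61.2, 10.8 and 38.4 CPM in ZT3 control and 8.18 to 14.2 CPM elsewhere in eWAT, high in the libraries with male tract markers, whose part in its level was not tested. Il2ra, the interleukin-2 receptor chain borne by regulatory T cells, was called higher at ZT12, at 1.93 ± 0.32 (edgeR adjusted p of 0.0193). The 5 regulatory T cell genes as a list were divided, with 3 above 0, 2 below and a median of 0.33. The homing genes Selplg and Cxcr4 were called higher, at 1.25 ± 0.23 and 1.07 ± 0.25 (edgeR adjusted p of 0.0242 and 0.0473). All 8 macrophage genes lay above 0 with a median of 1.27, of which 2 were called, Cd14 at 1.26 ± 0.25 and Csf1r at 1.28 ± 0.27 (edgeR adjusted p of 0.0305 and 0.0349). Without the 3 libraries Il2ra was still called, at 1.73 ± 0.27 (edgeR adjusted p of 0.0203), and the other 5 were not. Satb1 was then at -0.39 ± 0.23 (edgeR adjusted p of 0.348), Selplg at 1.305, Cxcr4 at 1.15, Cd14 at 1.17 and Csf1r at 1.13 (edgeR adjusted p from 0.0602 to 0.167). The 5 lymphatic endothelial genes lay below 0 with a median of -2.65 and 0 called. Among them Mmrn1 was at 13.6, 22.3 and 59.0 CPM in ZT3 control and 0.874, 10.7 and 0.317 CPM in ZT12 control.

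The ratio of B cell to T cell transcripts was also computed, and its order at ZT12 depended on which T cell genes were summed. The B cell sum divided by the T cell sum was 0.751, 1.05 and 1.03 in ZT3 control, 0.235, 0.265 and 0.390 in ZT3 shiftwork, 0.155, 0.193 and 0.225 in ZT12 control and 0.573, 0.806 and 0.369 in ZT12 shiftwork. With all 14 T cell genes the schedules did not overlap at either time, with control above shiftwork at ZT3 and below it at ZT12. Il7r alone was 34.1 of the 54.3 CPM in ZT12 control replicate 2. Without it, an alternative added after seeing the data, the ratios were 0.194, 0.517 and 0.274 in ZT12 control and 0.762, 1.17 and 0.444 in ZT12 shiftwork, and the schedules overlapped. The low ratio of ZT3 shiftwork replicate 3 rested in part on Tcf7 and Lef1, without which it was 0.74, against 0.256 and 0.292 in replicates 1 and 2 and 0.953 to 1.32 in ZT3 control. Cd79a over Cd3e reads gave 0.98 in that library, against 0.242 and 0.257 in replicates 1 and 2 and 1.26, 1.82 and 1.42 in ZT3 control. In iWAT the ratio was 1.84, 1.55 and 0.973 in control and 0.482, 1.18 and 0.199 in shiftwork. The ratio was computed after the levels were known and is given with no test.

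**Figure D5:**
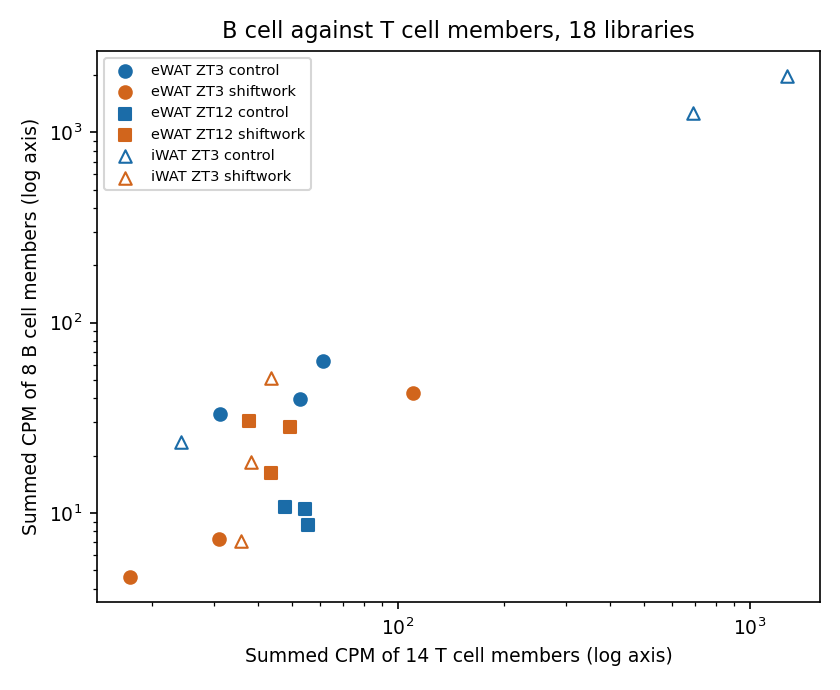
Summed CPM of the 8 B cell members (vertical, log axis) against that of the 14 T cell members (horizontal, log axis) in all 18 libraries, with 1 point per library, control in blue, shiftwork in orange, circles for eWAT at ZT3, squares for eWAT at ZT12 and open triangles for iWAT. iWAT control replicates 1 and 2 lie far above the rest on both axes, and the eWAT groups separate along the B cell axis more than along the T cell axis.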

How the data were processed

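Per the submitters' processing notes, the tools were STAR, HTSeq, DESeq2, limma and edgeR with mm10 and GRCm38. Their versions, roles and strand setting are not given in the sources used here, so reads of overlapping or antisense genes cannot be told apart. For eWAT the authors deposited raw read counts and log2(FPKM + 0.1) values. For iWAT the authors deposited RPKM, a table with log2 fold changes and p-values of their own comparison, and a normalized signal per gene. Of 310956 signal values, 100.0 percent were whole multiples of 1 step per library (tolerance 1e-06 of a read), from which reads were recovered. No per-sample column was left unmapped.

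CPM was computed from the counts and from the recovered reads. eWAT was fitted with edgeR 4.0.16 (quasi-likelihood, TMM, minimum count 10 and minimum total 15) over all 12 libraries. An edgeR test had been planned for iWAT too, but its values were not counts, so limma 3.58.1 was run on log2(value + 1) for genes with a value of at least 10 in 3 libraries. Adjusted p-values are Benjamini-Hochberg over all genes tested, at a threshold of 0.05. DESeq2 1.42.0 (R 4.3.3), other scalings, filters and pseudocounts, a replicate block and each library left out were tried. The scripts were tested on simulated data. Intervals (95%) and the limit for 0 (3 reads) cover counting error only.

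The members and all lists were chosen with earlier results of these data known. Fold changes are given for Cd79a, Ms4a1, Jchain, Cd3e, Cd8a, Ccr7, Cxcl13, Ccl19, Glycam1 and Siglech, for the largest and smallest of each comparison, and for up to 3 genes of a related list by smallest p. Other genes given with values, among them Fcer2a, Prox1, Mmrn1 and the receptor constant genes, were chosen after their values were seen. Some genes of the related lists are not reported here.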

Additional observations from a re-analysis of the deposited data

How the results depend on the processing

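With DESeq2 the genes called were 662 at ZT3, 12 at ZT12, 2186 and 287 between times in control and shiftwork eWAT, and 192 for the interaction, with 1, 0, 8, 0 and 1 members. Without a filter 320 genes were called between times in control mice, and with only the 2 groups 5 members. Without the 3 eWAT libraries holding male tract or germ cell transcripts, chosen after seeing the data, 9 genes were called at ZT3, 75 between times under shiftwork, 7 for the interaction, and 3 members between times in control mice. Signs then turned at ZT3 for Ccr7 (-0.52), Lef1 (-0.92) and Ccl19 (4.12), in control mice for Cd3e (0.43), Cd8a (0.20) and Ccl19 (3.15), and under shiftwork for Cd3e (0.02) and Lef1 (1.01). Without iWAT control replicates 1 and 2 the median turned to 0.22, with Jchain at 0.30, Cd3e 1.21, Cd8a 1.38, Ccr7 1.08, Cxcl13 0.22, Ccl19 0.03 and Il7r 0.11. The stroma sum without Ltb had a mean of 2.22 CPM in ZT12 control. In each case the cause was not tested.

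Leaving out each library in turn, the genes called ran from 0 to 403 at ZT3, 0 to 0 at ZT12, 1 (without ZT12 control replicate 1) to 2744 (without ZT3 shiftwork replicate 3) in control mice, 0 to 0 under shiftwork, 0 to 186 for the interaction and 0 to 360 in iWAT. The members called ran from 0 to 1, 0 to 0, 0 to 10, 0 to 0, 0 to 3 and 0 to 22. Their medians ran from -1.89 to -0.31, 0.09 to 0.49, -1.17 to -0.63, -0.08 to 1, 0.95 to 2.27 and -5.12 to -1.95. Signs turned for Ccr7 (-0.77 to 0.42) and Lef1 (-2.96 to 1.94) at ZT3, Cd8a (-0.04 to 0.46) and Ccr7 (-0.29 to 0.21) at ZT12, Cd3e (-0.21 to 0.26) and Ccr7 (-0.0042 to 0.51) in control mice, and Ms4a1 (-0.16 to 2.05), Cd3e (-0.64 to 0.04), Ccr7 (-0.22 to 0.97) and Lef1 (-3.88 to 1.02) under shiftwork.

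With the replicate block 298 genes and 0 members were called between times in control mice, 0 genes elsewhere, and Ccr7 turned to -0.08 at ZT3. The block goes by replicate number, which is not the number in the label. Between the schedules at ZT12, deviations of libraries with the same replicate number correlated at 0.307, 0.130 and 0.203, and the block changed no call. Pairs of unlike number there ran from -0.275 to 0.125. Between the schedules at ZT3 in eWAT the same-numbered pairs had -0.094, 0.165 and 0.035. Unlike-numbered pairs across eWAT groups reached 0.465, so these values do not establish a pairing.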
